A study of Mus musculus with 16 samples.

Results

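The receptors and soluble regulators of IL-1, IL-18 and IL-33 were followed in 4 subsets of mouse regulatory T cells (Treg), fresh and after activation. The family was taken as 8 listed genes, and a gene was read from the probe set paired with its symbol alone. Of the 8 genes, 6 had such a probe set among 19938 measured genes: Il18r1 (probe set 10345807), Il18rap (10345824), Il1rap (10434845), Il1r2 (10345752), Il1rn (10469816) and Sigirr (10569024). No probe set was paired with Il1r1 or Il1rl1 in the annotation used, and both genes are not analysed here. The signalling receptor of IL-1 and the receptor of IL-33 are therefore not part of the values below.

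All cells came from wild type female C57BL/6 mice of 8 to 12 weeks, and were taken from pooled lymph nodes. Treg were sorted by surface CD103, an integrin chain, and ICOS, a costimulatory receptor, into double-negative (CD103neg ICOSneg), double-positive, and single-positive cells of either kind, called CD103 single-positive and ICOS single-positive. Fresh cells were lysed after sorting. Activated cells spent 3 days in a suppression assay, where 200000 Treg of a subset were cultured with 1000000 Ly5.1 congenic naive CD4 cells, 2000000 irradiated Rag2-/- splenocytes and soluble anti-CD3 at 0.5 ug/ml. They were then re-sorted as Ly5.1neg CD4pos CD25pos cells, without regard to CD103 or ICOS. Each of the 8 groups held 2 arrays, called replicates 1 and 2, which the labels call biological replicates.

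Receptors of this family work in pairs. A ligand-binding chain recruits an accessory chain, and the joined intracellular domains signal through MyD88 to NF-kB. Il18r1 encodes the binding chain and Il18rap the accessory chain of the IL-18 receptor, while Il1rap encodes the accessory chain shared by the IL-1 and IL-33 receptors. The other members restrain the pathway. Il1r2 encodes a decoy receptor that binds IL-1 without signalling, Il1rn the IL-1 receptor antagonist, and Sigirr an inhibitory receptor of the family. In Treg, IL-18 and IL-33 receptors are known from cells resident in tissues, and the decoy receptor from activated and follicular regulatory cells.

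In fresh cells Itgae, which encodes CD103, read 11.77 to 12.37 on the CD103-positive arrays against 7.25 to 9.19 on the others, and Icos read 12.61 to 13.31 on the ICOS-positive arrays against 10.40 to 11.47. After activation Itgae read 9.87 to 11.18 on the CD103-positive arrays and lower on 3 of the 4 others, at 7.95 or less. ICOS single-positive replicate 1, sorted as CD103-negative, read just above both CD103 single-positive arrays. Activated Icos values spanned 11.63 to 12.12 in cells sorted as ICOS-negative. In the ICOS-positive groups Icos read 12.87 to 12.91, except for 11.25 on ICOS single-positive replicate 2, the lowest activated value. Apart from that array, the gap in Icos between the sorted kinds was narrower than in fresh cells. Foxp3, the lineage factor of Treg, lay between a log2 intensity of 11.99 and 12.84 on the 8 fresh arrays and between 11.69 and 12.64 on 7 of the activated ones. It was 8.53 on activated ICOS single-positive replicate 2, against 12.64 on its partner. All 10 Treg markers read here, and 5 of the 6 family members, had their lower value of the pair on that array. Il1r2 was lower by 4.02 on the log2 scale (6.93 against 10.94), Il18r1 by 2.21, Il1rn by 1.74 and Il18rap by 1.34. Il1rap was 0.011 higher and Sigirr 0.011 lower than on the partner. On that array the mean of the Treg list was 9.28, against 10.86 to 11.48 on the other 7 activated arrays and 11.05 to 11.97 on the fresh ones. The mean of CD8 T and NK cell markers was 6.09 there, above the other activated arrays (5.41 to 5.63). That of conventional CD4 T cell markers was 8.90, also above them (7.68 to 8.83). Of the single genes, 3 of 7 CD8 T and NK cell markers and 5 of 10 conventional CD4 T cell markers read lower there than on the partner. The B cell list, at 5.20, lay below the other activated arrays (5.74 to 6.12). Mast cell and basophil markers, at 5.34, lay within their range (5.01 to 5.43). On the fresh arrays these 4 lists ran from 5.67 to 6.18, 7.38 to 8.95, 5.50 to 6.38 and 4.93 to 5.33. Lists of myeloid and neutrophil markers averaged 6.31 and 5.14 on activated ICOS single-positive replicate 2. Both lay within the range of the other activated arrays (5.89 to 6.45 and 4.84 to 5.37). That array is shown apart. Tests are given on all 16 arrays, and many of them also on the 15 others.

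**Figure D1:**
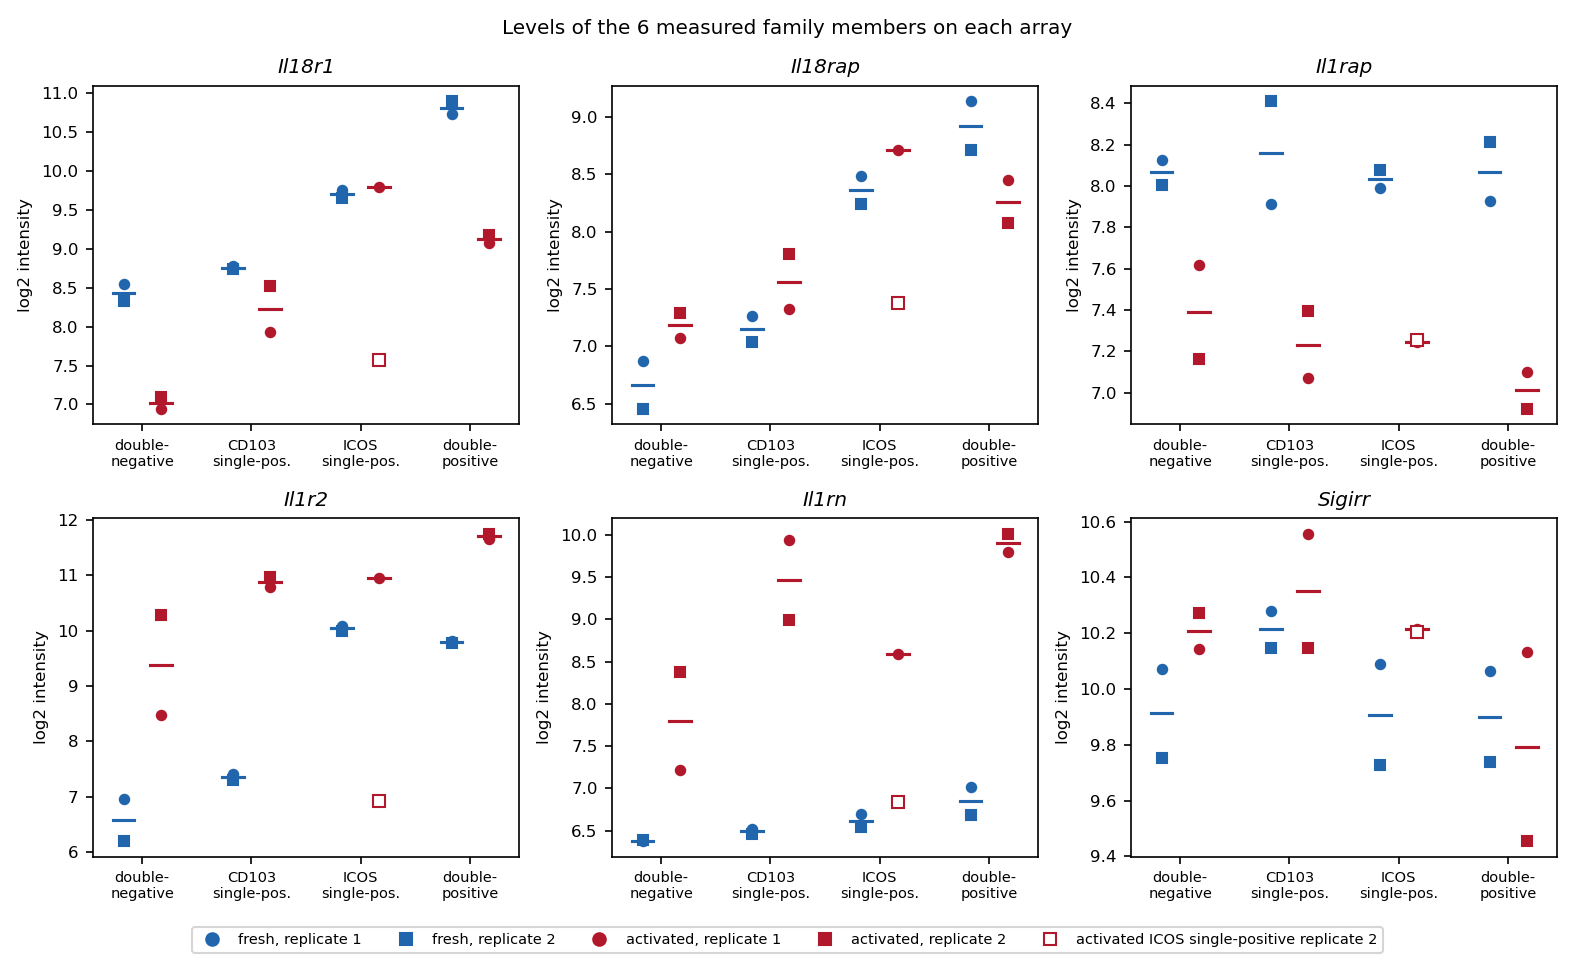
Log2 intensity of the 6 measured members (vertical axes) in the 4 subsets (horizontal axes), fresh in blue and activated in red, with circles for replicate 1, squares for replicate 2, bars for group means without the array shown apart, and an open square for the array shown apart. Il1r2, Il18r1 and Il18rap stand higher on the fresh ICOS-positive arrays, and Il1rap lies between 7.91 and 8.41 on all fresh arrays against 6.92 to 7.62 on the activated ones.

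The DNA in front of the members that moved is shown for orientation. Each line holds the 250 bases before the most upstream RefSeq start of the gene (GRCm38.p6, plus strand), for the members whose window lies in no other protein-coding gene. Short motifs of 3 factors were searched on both strands: TGANTCA of AP-1, AGATAA of GATA factors and the NF-kB consensus. Capitals mark a match.
Il1r2 (chr1:40085843-40086092): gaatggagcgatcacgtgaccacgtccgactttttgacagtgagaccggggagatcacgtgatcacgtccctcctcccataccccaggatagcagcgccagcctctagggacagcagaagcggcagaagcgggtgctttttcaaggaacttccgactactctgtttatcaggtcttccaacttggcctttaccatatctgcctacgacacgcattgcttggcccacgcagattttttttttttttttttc
Il1rn (chr2:24336610-24336859): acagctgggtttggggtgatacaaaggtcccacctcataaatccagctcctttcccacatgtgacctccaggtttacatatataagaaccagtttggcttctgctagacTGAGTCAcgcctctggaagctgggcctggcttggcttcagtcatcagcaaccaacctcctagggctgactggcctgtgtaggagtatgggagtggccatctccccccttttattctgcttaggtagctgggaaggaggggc
Il18rap (chr1:40515112-40515361): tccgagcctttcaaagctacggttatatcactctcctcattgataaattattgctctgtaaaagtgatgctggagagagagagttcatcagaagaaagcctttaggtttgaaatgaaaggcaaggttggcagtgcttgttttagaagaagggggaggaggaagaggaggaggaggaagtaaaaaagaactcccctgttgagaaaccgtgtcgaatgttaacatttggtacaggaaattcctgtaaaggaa
Il1rap (chr16:26581455-26581704): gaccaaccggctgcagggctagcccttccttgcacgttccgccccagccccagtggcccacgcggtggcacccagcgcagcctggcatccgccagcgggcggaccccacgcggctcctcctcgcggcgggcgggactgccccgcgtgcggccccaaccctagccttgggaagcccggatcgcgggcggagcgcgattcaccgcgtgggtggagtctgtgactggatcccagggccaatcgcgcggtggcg
The only match in these windows lay in front of Il1rn, where TGAGTCA began 141 bases before the start. The AP-1 letters occur in 6.85% of the 27025 promoters of this length, the GATA letters in 10.2% and the NF-kB consensus in 4.81%. The Il1rap window held 74.4% G and C, against a median of 52% over all promoters and 42% for Il18rap. Il1r2 and Il18rap lie on chromosome 1 with Il18r1 between them, whose window starts at position 40465302. Il18r1 has no line because its window lies inside Il1rl1, its neighbour, and no start of Sigirr was listed. A match is a string of letters and not a measured site.

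Among fresh cells the first question was how the family differs between subsets that do and do not carry ICOS. Both chains of the IL-18 receptor and the IL-1 decoy receptor were higher in the ICOS-positive subsets, and the shared accessory chain and Sigirr did not pass. With limma and a Benjamini-Hochberg adjusted p below 0.05 over all genes, 3 of 6 members rose and 0 fell, where 4.1% of all genes rose and 2.43% fell (6.53% in either direction). On 15 arrays the same 3 passed, where 7.81% did. In sorted cells of mixed kind, fewer cells with a transcript and less transcript per cell cannot be told apart.

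The binding chain Il18r1 read 8.54 and 8.33 (log2 intensity) in fresh double-negative, 8.78 and 8.73 in CD103 single-positive, then 9.76 and 9.65 in ICOS single-positive and 10.73 and 10.89 in double-positive cells. The 4 ICOS-positive arrays all lay above the 4 ICOS-negative ones, and the double-positive pair stood above the rest. The ICOS difference was 1.66 on the log2 scale (SE 0.35, 95% interval 0.88 to 2.44, 3.16-fold, limma adjusted p = 0.0176). It was 1.58 within the replicate 1 arrays and 1.74 within the replicate 2 arrays. On 15 arrays the adjusted p was 1.96e-05.

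Its partner chain Il18rap read 6.87 and 6.45 in double-negative, 7.26 and 7.04 in CD103 single-positive, then 8.48 and 8.24 in ICOS single-positive and 9.14 and 8.71 in double-positive cells. The arrays again separated by ICOS without overlap. The difference was 1.74 (SE 0.25, 95% interval 1.18 to 2.29, 3.33-fold, limma adjusted p = 0.00193), with 1.74 and 1.73 within replicates 1 and 2.

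The decoy receptor Il1r2 read 6.97 and 6.20 in double-negative, 7.41 and 7.31 in CD103 single-positive, then 10.09 and 9.99 in ICOS single-positive and 9.82 and 9.78 in double-positive cells. Unlike both IL-18 receptor chains it was not highest in the double-positive cells: its mean there was 9.80 ± 0.028 (SD, n = 2), against 10.04 ± 0.071 in ICOS single-positive cells. The ICOS difference was 2.95 (SE 0.68, 95% interval 1.45 to 4.44, 7.70-fold, limma adjusted p = 0.0256). In CD103-negative cells the means differed by 3.45 and in CD103-positive cells by 2.44, but the interaction did not pass (-1.02, 95% interval -4.01 to 1.98).

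The other 3 members gave no call for ICOS in fresh cells. The antagonist Il1rn ran from 6.54 to 7.01 on the ICOS-positive and from 6.37 to 6.52 on the ICOS-negative arrays, which do not overlap, with a difference of 0.30 (95% interval -0.49 to 1.09, adjusted p = 0.716). Its fresh values lay close to the array medians of 6.26 to 6.48, where background is a large share of the signal. The fresh double-negative values of Il1r2 (6.97 and 6.20) and Il18rap (6.87 and 6.45) did too. The accessory chain Il1rap differed by -0.063 (95% interval -0.36 to 0.24), and Sigirr by -0.16 (95% interval -0.51 to 0.19).

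Conventional CD4 T cells can carry the IL-18 receptor too. Among 10 measured markers of them, 2 rose and 2 fell with ICOS in fresh cells, beside 4.1% and 2.43% of all genes. Il21, a cytokine of helper T cells, rose by 2.34 and Cd40lg by 0.70, while Ccr7, a homing receptor of resting T cells, fell by 1.06 and Lef1 by 0.80. The mean of the 10 markers was 8.14 and 8.09 in double-negative and 7.79 and 7.71 in CD103 single-positive cells. It was 8.90 and 8.95 in ICOS single-positive and 7.48 and 7.38 in double-positive cells. Foxp3 read 12.84 and 12.50 on the double-positive arrays, and 12.34 and 11.99 on the ICOS single-positive ones. The part of conventional cells in the differences of the receptors was not tested.

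The calls of Il18r1 and Il1r2 depended on which array was left out. Both calls held without the array shown apart, where their intervals were narrower. That of Il1r2 was lost without any 1 of the 8 fresh arrays (adjusted p from 0.0546 to 0.0906) and that of Il18r1 without any 1 of 6 of them (0.0524 to 0.065), while their differences stayed between 2.75 and 3.14 and between 1.61 and 1.71.

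CD103 gave no call among the members in fresh cells on 16 arrays (0 of 6, with 0.206% of all genes called, and 1494 genes at an unadjusted p below 0.05). Il18r1 had the largest positive difference, 0.71 (SE 0.35, adjusted p = 0.739). On 15 arrays the same difference passed (SE 0.12, 95% interval 0.44 to 0.98, adjusted p = 0.0274), where 0.792% of all genes did. The means differed by 0.32 in ICOS-negative and by 1.11 in ICOS-positive cells, and the interaction did not pass (0.79, 95% interval -0.77 to 2.35). Il18rap differed by 0.53 (95% interval -0.033 to 1.08) and Il1r2 by 0.27 (95% interval -1.23 to 1.77). The mean level of 11 myeloid markers ran from 6.15 to 7.31 on the fresh arrays and was highest on CD103 single-positive replicate 1 and double-positive replicate 1, at 7.31 and 7.10. Its part in the CD103 difference was not tested. Il18r1 differed by 0.60 within the replicate 1 arrays and by 0.83 within the replicate 2 arrays.

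**Figure D2:**
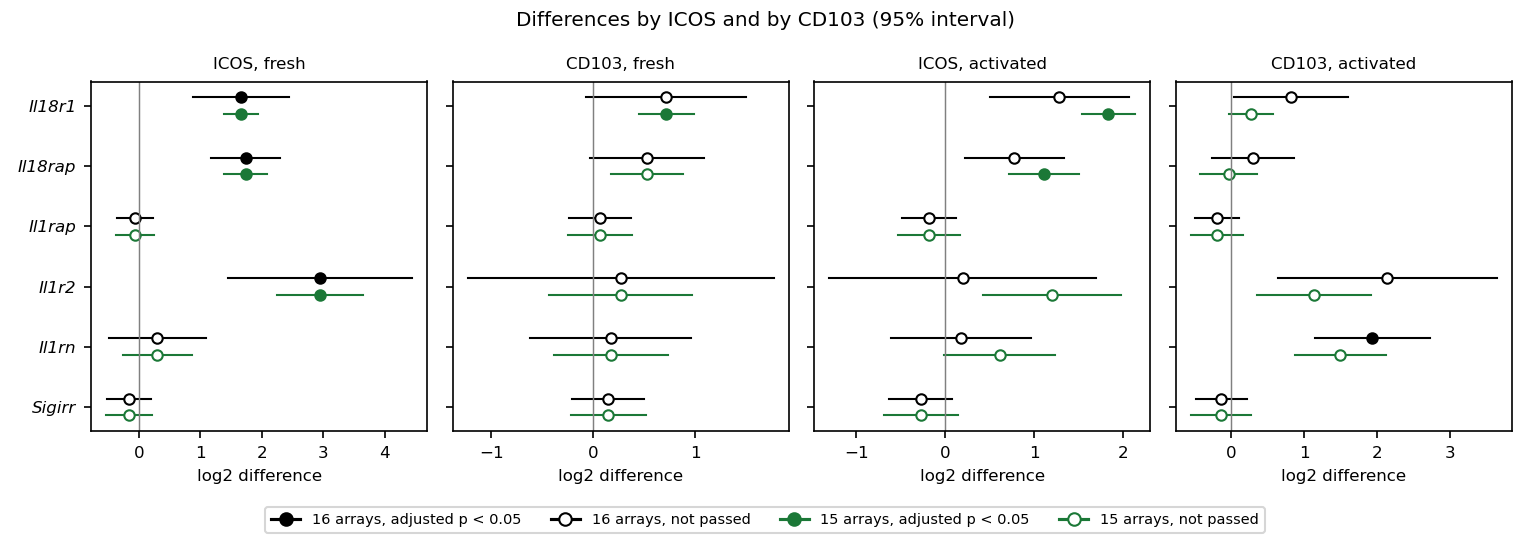
Log2 differences (horizontal axes) of the 6 members by ICOS and by CD103 in fresh and activated cells, with 95% intervals from limma, in black for all 16 arrays and in green for the 15 arrays without activated ICOS single-positive replicate 2. Filled points passed: Il18r1, Il18rap and Il1r2 for ICOS in fresh cells in both fits, Il18r1 for CD103 in fresh cells and both IL-18 receptor chains for ICOS in activated cells on 15 arrays alone, and Il1rn for CD103 in activated cells on 16 arrays alone.

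With activation 4 of the 6 members changed, in opposite directions. The decoy receptor and the antagonist rose, and the IL-18 binding chain and the shared accessory chain fell. Averaged over the 4 subsets, 2 members rose and 2 fell, where 14.4% of all genes rose and 16.8% fell. Calls were common in this comparison, at 31.2% of all genes, and 30.7% on 15 arrays. Each of these 4 calls held in all 23 alternatives tried.

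Averaged over the subsets Il1rn had the largest difference of the members, although Il1r2 had larger ones in double-negative and CD103 single-positive cells. Il1rn ran from 6.37 to 7.01 (median 6.53) on the 8 fresh arrays and from 7.21 to 10.01 (median 8.99) on 7 activated ones, with no overlap. The array shown apart read 6.84. The difference was 2.13 on the log2 scale (SE 0.25, 95% interval 1.58 to 2.69, 4.39-fold, limma adjusted p = 6.4e-05), and 2.35 on 15 arrays. It passed in CD103 single-positive cells (2.98, adjusted p = 0.00161) and in double-positive cells (3.05, adjusted p = 0.00281). In ICOS single-positive cells it was 1.09 on 16 arrays (limma adjusted p = 0.396) and 1.97 on 15. In double-negative cells it was 1.42 (adjusted p = 0.0877, and 0.0197 on 15 arrays), where replicate 1 rose to 7.21 and replicate 2 to 8.38.

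Il1rn and Il1r2 are also genes of neutrophils and macrophages, so markers of those cells were read beside them. Of 9 neutrophil markers 8 lay below the array median on all 16 arrays, S100a8, S100a9, Cxcr2 and Camp among them. With activation 3 of the 9 rose and 0 fell, beside 14.4% and 16.8% of all genes. The median difference of the 9 was -0.022. Ly6g rose by 2.66, Cxcr2 by 0.40 and Camp by 0.16, in the same direction as Il1rn and Il1r2. Of 11 myeloid markers 5 fell and 1 rose with activation, beside 16.8% and 14.4% of all genes: Lyz2 fell by 2.26, and Cd68 rose by 0.85. The mean of the myeloid list was 5.89 to 6.45 on 7 activated arrays against 6.15 to 7.31 on the fresh ones. Of 10 markers of conventional CD4 T cells 3 rose with activation and 3 fell, beside 14.4% and 16.8% of all genes. Il17a rose by 2.26, and Il21 rose too (limma adjusted p = 0.00333). Il4 rose by 0.53, while Cd40lg fell by 0.60 (limma adjusted p = 2.5e-04). The part of such cells in the values of Il1rn and Il1r2 was not tested.

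Il1r2 ran from 6.20 to 10.09 on the fresh arrays and from 8.47 to 11.75 on 7 activated ones, with 6.93 on the array shown apart. The difference was 1.78 (SE 0.48, 95% interval 0.72 to 2.84, 3.42-fold, limma adjusted p = 0.0147), and 2.28 on 15 arrays (adjusted p = 3.76e-05). The rise was 3.51 in CD103 single-positive cells (adjusted p = 0.0241), from 7.41 and 7.31 to 10.79 and 10.96. This call was lost without any 1 of the 4 arrays of that subset (adjusted p from 0.0891 to 0.105). The difference was 2.79 in double-negative cells, from 6.97 and 6.20 to 8.47 and 10.27, and 1.90 in double-positive cells, from 9.82 and 9.78 to 11.66 and 11.75. Neither of these passed on 16 arrays (adjusted p = 0.0772 and 0.238) and both did on 15 (0.00158 and 0.0166). In ICOS single-positive cells the difference was -1.10 on 16 arrays (adjusted p = 0.736) and 0.91 on 15 (adjusted p = 0.631), where fresh cells read 10.09 and 9.99 and activated replicate 1 read 10.94.

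Il18r1 moved the other way. It ran from 8.33 to 10.89 (median 9.21) on the fresh arrays and from 6.94 to 9.79 (median 8.52) on 7 activated ones, which overlap across subsets. The difference was -1.16 (SE 0.25, 95% interval -1.72 to -0.61, 2.24-fold lower, limma adjusted p = 0.00392), and -0.89 on 15 arrays. It fell by 1.69 in double-positive cells (adjusted p = 0.0469), from 10.73 and 10.89 to 9.07 and 9.17, and this call was lost in 15 of 23 alternatives (adjusted p up to 0.186) but not on 15 arrays (1.84e-04). In double-negative cells the difference was -1.42 (adjusted p = 0.0845, and 2.88e-04 on 15 arrays), from 8.54 and 8.33 to 6.94 and 7.10. In CD103 single-positive cells the difference was -0.53 (limma adjusted p = 0.589), from 8.78 and 8.73 to 7.93 and 8.52. In ICOS single-positive cells replicate 1 read 9.79, beside 9.76 and 9.65 in the fresh cells, and the array shown apart read 7.58.

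Il1rap fell in a narrow band. It ran from 7.91 to 8.41 (median 8.04) on the fresh arrays and from 6.92 to 7.62 (median 7.20) on all 8 activated ones, with no overlap. The difference was -0.86 (SE 0.096, 95% interval -1.07 to -0.65, 1.82-fold lower, limma adjusted p = 4.2e-05). It passed in double-negative (-0.67, adjusted p = 0.0354), CD103 single-positive (-0.93, adjusted p = 0.00539) and double-positive cells (-1.06, adjusted p = 0.00467), and was -0.78 in ICOS single-positive cells (adjusted p = 0.0724). The call in double-negative cells was lost in 6 of 23 alternatives and that in CD103 single-positive cells in 2.

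The accessory chain Il18rap and the inhibitory receptor Sigirr gave no call for activation. Il18rap averaged -0.01 over the subsets (95% interval -0.41 to 0.38). Beneath that mean, double-negative cells went from 6.87 and 6.45 to 7.07 and 7.29, and double-positive cells from 9.14 and 8.71 to 8.45 and 8.07. Sigirr lay between 9.45 and 10.56 on all 16 arrays, with a difference of 0.16 (95% interval -0.093 to 0.41).

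**Figure D3:**
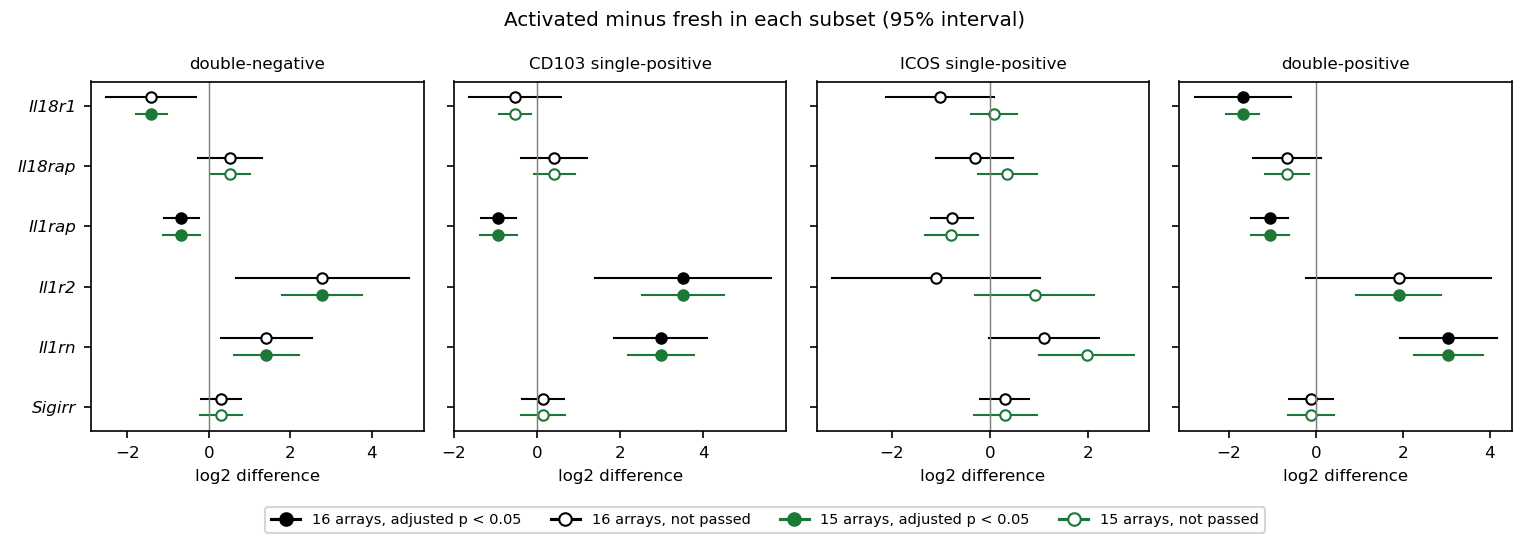
Activated minus fresh log2 differences (horizontal axes) of the 6 members in each of the 4 subsets, with 95% intervals from limma, in black for all 16 arrays and in green for 15 arrays. Il1rn and Il1r2 lie right of 0 and Il1rap left of 0 in each subset on 15 arrays. The intervals of Il1rn, Il1r2 and the IL-18 receptor chains are narrower there than on 16 arrays, and those of Il1rap are slightly wider.

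By subset, activation called 1 of 6 members in double-negative cells (16.2% of all genes), 3 in double-positive (14.1%) and 3 in CD103 single-positive cells (20.2%). In ICOS single-positive cells limma called 0 members (2.09% of all genes, and 2604 genes at an unadjusted p below 0.05). On 15 arrays the counts were 4 (17.2%), 4 (14.8%), 3 (21.1%) and 0 (1.62%) in the same order. The activated ICOS single-positive group then held 1 array and was assumed to vary like the others.

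After activation the IL-18 receptor chains still read higher in the ICOS-positive subsets, on the arrays other than the one shown apart. On 16 arrays 0 of 6 members passed for ICOS in activated cells, where 6.94% of all genes did and 3923 had an unadjusted p below 0.05. On 15 arrays 2 of 6 passed, where 6.65% did. Il18r1 read 9.07 to 9.79 on 3 ICOS-positive arrays and 6.94 to 8.52 on 4 ICOS-negative ones, with no overlap (1.28, adjusted p = 0.0549 on 16 arrays, and 1.84, adjusted p = 8.99e-05 on 15). Il18rap read 8.07 to 8.71 against 7.07 to 7.81, with no overlap either (0.78, adjusted p = 0.0971, and 1.11, adjusted p = 0.00654). Il1r2 read 10.94 to 11.75 against 8.47 to 10.96 (0.20, adjusted p = 0.934, and 1.20, adjusted p = 0.0741). Of the 10 markers of conventional CD4 T cells, 2 were higher in activated ICOS-positive cells on 16 arrays, Il17a (3.72) and Cd40lg (0.77). None was lower, and 6.94% of all genes passed in either direction. The part of these markers in the values of the receptors was not tested.

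For CD103 in activated cells 1 of 6 members passed, where 0.717% of all genes did. Il1rn read 8.99 to 10.01 on the 4 CD103-positive arrays and 6.84 to 8.58 on the 4 CD103-negative ones, with no overlap. The difference was 1.93 (SE 0.36, 95% interval 1.14 to 2.72, 3.81-fold, limma adjusted p = 0.0421), with 1.97 and 1.89 within replicates 1 and 2. On 15 arrays it was 1.49 and did not pass (adjusted p = 0.068), where 0.361% of all genes did, and the call was lost in 14 of 24 alternatives (adjusted p from 0.0668 to 0.289), among them 13 of the 16 that left out 1 array. Il1r2 differed by 2.14 (adjusted p = 0.212), and by 1.13 on 15 arrays (adjusted p = 0.334).

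No member showed a called difference between states in its ICOS or CD103 contrast. For ICOS, 0 of 6 passed where 6.72% of all genes did and 4118 had an unadjusted p below 0.05. The ICOS difference of Il1r2 was 2.75 smaller in activated cells (95% interval -4.87 to -0.63, adjusted p = 0.126), and 1.74 smaller on 15 arrays (adjusted p = 0.0598). For CD103, 0 of 6 passed where 0.296% did, with 2111 genes at an unadjusted p below 0.05. Il1rn had the smallest p there (1.76, adjusted p = 0.207). In activated cells the interaction of both markers called 0 members by limma, with 0.015% of all genes called and 518 at an unadjusted p below 0.05, and in fresh cells 0 members, with 0.0451% and 989. The activated interaction of Il18r1 was -0.76, and -1.87 on 15 arrays (adjusted p = 0.188).

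Ordered by group mean over 15 arrays, each member had its own ranking of the 8 groups. Il18r1 was highest in fresh double-positive cells (10.81) and lowest in activated double-negative cells (7.02), and Il18rap was highest in the same group (8.92) and lowest in fresh double-negative cells (6.66). For Il18rap, the arrays of fresh double-positive cells and of activated ICOS single-positive cells overlapped, as did those of fresh ICOS single-positive and activated double-positive cells. Il1r2 and Il1rn were both highest in activated double-positive cells (11.70 and 9.90) and lowest in fresh double-negative cells (6.58 and 6.38). The Il1rn arrays of activated double-positive and CD103 single-positive cells overlapped. For Il1rap the arrays of neighbouring groups overlapped at each step but the one from the fresh to the activated groups, where the means differed by 0.64.

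Over 15 arrays Il18r1 and Il18rap correlated at r = 0.80 and Il1r2 and Il1rn at r = 0.79, while Il1rn and Il1rap ran opposite (r = -0.94). These are descriptions over arrays that share groups and states. The genes most like each member, among 8143 genes with a group mean of at least 8, were Ttc39c, Ripk3 and Il10 for Il1r2 (r = 0.97, 0.96 and 0.96) and Timd2, Il5 and Ttll5 for Il1rn (0.98, 0.96 and 0.96). For Il18r1 they were Lrba, Tnfrsf1b and Itga2 (0.94, 0.94 and 0.93), and for Il18rap S100a11, Crmp1 and Alox8 (each 0.95). Foxn2, B130055M24Rik and Zfp846 were most like Il1rap (0.98, 0.98 and 0.97), and Zfpl1, Kmt5c and Tnpo2 most like Sigirr (0.88, 0.86 and 0.83).

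**Figure D4:**
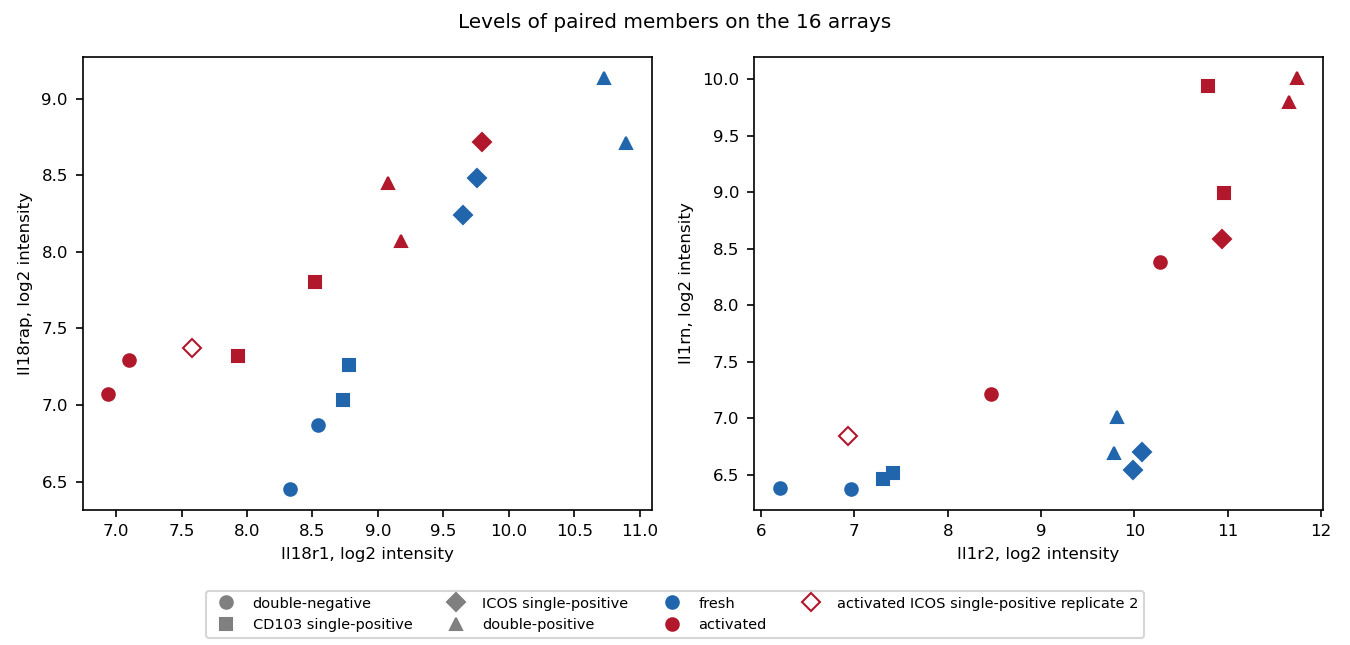
Log2 intensities of Il18rap against Il18r1 (left) and of Il1rn against Il1r2 (right) on the 16 arrays, with a shape for each subset, blue for fresh, red for activated and an open symbol for the array shown apart. Fresh ICOS-positive arrays are high in Il1r2 (9.78 to 10.09) with Il1rn between 6.54 and 7.01, and 7 activated arrays are higher in Il1rn.

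Of 10 measured ligands and soluble inhibitors 2 rose and 1 fell with activation, close to the 14.4% and 16.8% of all genes that did, with a median difference of -0.0024, beside -0.0032 over all genes. Il1a rose by 1.13 (adjusted p = 0.00374) and Il1b by 0.71 (adjusted p = 0.002), both IL-1 ligands. Without the array shown apart these differences were 0.88 and 0.61. Il18bp, which binds and neutralises IL-18, fell by 0.33 (adjusted p = 0.0236). The mean of the 10 genes was highest on the array shown apart, at 5.53, against at most 5.24 on the others. It lay below the array medians of 6.26 to 6.48 throughout, where background is a large share of the signal. Which cells these transcripts came from was not tested. None of the 10 passed for ICOS or CD103 in either state on 16 arrays, and on 15 arrays Il18 passed for ICOS in fresh cells (0.55, adjusted p = 0.0324). The other 3 receptors of the family, Il1rl2, Il1rapl1 and Il1rapl2, passed in none of the 13 comparisons on 16 or 15 arrays. Their mean lay between 4.51 and 4.91 on the 16 arrays, also below the array medians, so a missing call does not show equal levels.

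In the signalling chain from MyD88 to NF-kB, 2 of 18 measured genes rose and 6 fell with activation (median -0.15), beside 14.4% and 16.8% of all genes. Ikbkb, a kinase that releases NF-kB, fell by 0.83 (adjusted p = 1e-05), Peli1, a ubiquitin ligase of the pathway, by 0.48, Mapk8 by 0.41 and Mapk9 by 0.39. In fresh ICOS-positive cells Ikbkb (-0.45, adjusted p = 0.03) and Peli1 (-0.42, adjusted p = 0.0462) were lower, the latter not on 15 arrays (adjusted p = 0.053).

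Of 11 genes listed as brakes on the pathway 4 fell and 1 rose with activation, beside 16.8% and 14.4% of all genes. Irak3, an inactive kinase that blocks signalling downstream of the receptors, fell by 1.22 (adjusted p = 4.8e-05), the NF-kB regulator Nfkbiz by 0.68, the deubiquitinase Cyld by 0.56 and Tnip1 by 0.34. Irak3 was higher in activated ICOS-positive cells (1.09, adjusted p = 0.0105). In fresh ones its difference was 0.69 and did not pass (adjusted p = 0.0632, and 7.47e-04 on 15 arrays). The ICOS difference of Nfkbiz changed by 0.88 between the states (adjusted p = 0.039), from -0.64 in fresh cells (adjusted p = 0.0325).

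Of 8 genes that process IL-1 and IL-18, 3 rose with ICOS in fresh cells and 0 fell: Casp1, the protease that cuts both cytokines, by 1.24 (adjusted p = 0.0218), Casp4 by 1.11 (adjusted p = 0.0363) and the adaptor Pycard by 0.44 (adjusted p = 0.00937), while the median of the 8 was -0.15 and 4.1% of all genes rose. With activation 5 of the 8 fell and 1 rose (median -0.48), beside 16.8% and 14.4% of all genes. Casp1 fell by 1.73, Pycard by 0.64 and the DNA sensor Aim2 by 0.62, and Casp4 fell too (adjusted p = 0.00205).

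A last list held genes known to go with the IL-33 receptor in tissue Treg. In fresh ICOS-positive cells 7 of 11 rose and 0 fell (median 1.17, beside -0.051 over all genes, of which 4.1% rose and 2.43% fell). On 15 arrays 9 rose, where 7.81% of all genes passed in either direction. The inhibitory receptor Klrg1 rose by 4.57, the cytokine Il10 by 4.19, the repressor Prdm1 by 3.44 and the nuclear receptor Rora by 1.80. With activation 7 rose and 0 fell on 16 arrays, where 14.4% and 16.8% of all genes did. On 15 arrays 10 rose and 1 fell, Klrg1 (-0.31), where 30.7% of all genes passed in either direction. Nfil3 rose by 2.29, Il10 by 2.17, the chemokine receptor Ccr8 by 1.69 and Tnfrsf9 by 1.54. The ICOS difference was smaller in activated cells for 3 of the 11 and larger for 0, where 6.72% of all genes passed in either direction. The 3 were Ccr8 (-2.32, adjusted p = 0.00143), Batf (-1.47, adjusted p = 0.0041) and Irf4 (-1.46, adjusted p = 0.00442). The members and these genes share arrays, and nothing particular to the list was tested.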

How the data were processed

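Arrays were hybridised with label from 270 ng of total RNA. The authors' deposited values are log2 intensities, 1 per probe set (35556) and array (16). RMA and the affy package are named per the submitters' processing notes. The sources used here give no version, setting or genome build. RMA summarises probes after background correction and quantile normalization, and the remaining background understates folds of dim genes. No second normalization was applied. Arrays carry no depth, and their number limits the precision.

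The annotation paired 21789 probe sets with 1 symbol, 1621 with several and 12146 with none. The brightest probe set over all arrays stood for a gene (each measured member had 1). RefSeq (GRCm38.p6) gave the same symbol for all 19856 genes matched by gene ID, and the promoter sequences. limma 3.58.1 in R 4.3.3 was fitted to all 16 arrays with 8 group means (8 residual degrees of freedom, prior 2.90) for 13 comparisons, and adjusted over 19938 genes. It was tested on simulated data. P-values rest on the spread between 2 biological replicates a group, pooled for each gene over the 8 groups. A wide gap within 1 group thus widens the intervals of a gene in all comparisons. No dim genes were removed. Members and lists were chosen with earlier results of these data known, and support nothing beyond their values. Of each list, up to 4 passing genes with the largest differences are named per comparison described. Alternatives left out each array in turn, added the replicate number as a block, renormalized, filtered dim genes, averaged probe sets, changed the variance prior, weighted arrays or fitted each state alone.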

Additional observations from a re-analysis of the deposited data

Results flagged for a closer look

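Il18rap went in opposite directions with activation in different subsets. Both activated arrays lay above both fresh ones in double-negative (difference 0.52) and CD103 single-positive cells (0.41), and both lay below in double-positive cells (-0.66). The difference between these subsets was not tested as such. The nearest test, of the ICOS difference between states, gave -0.96 (limma adjusted p = 0.153), and -0.62 on 15 arrays (adjusted p = 0.183).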

How the results depend on the processing

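The count of 4 members called for activation over all subsets, and the counts of 0 for both interactions, held in all alternatives. Leaving out 1 array gave 1 to 3 members for ICOS in fresh cells (3 on all arrays), 0 to 1 for CD103 in fresh cells (0), 0 to 2 for ICOS in activated cells (0) and 0 to 3 for CD103 in activated cells (1). It gave 0 to 4 for activation in double-negative cells (1), 1 to 3 in CD103 single-positive (3), 0 to 2 in ICOS single-positive (0) and 2 to 4 in double-positive cells (3), and 0 to 3 and 0 to 2 for the ICOS and CD103 differences between states (0 and 0), whose highest counts, like that for CD103 in activated cells, came without activated ICOS single-positive replicate 1, the partner of the array shown apart. A group left with 1 array was assumed to vary like the others. For fresh cells and the other subsets, leaving out either array of that pair gave the same p for Il18r1, Il1r2 and Il1rn, since both remove the gap within the pair from the shared spread. Fitting the state alone gave 1 member for CD103 in fresh cells (Il18r1) and 0 in activated cells. For ICOS in activated cells, repeated quantile normalization and a filter on dim genes each gave 1 (Il18r1). For activation in double-negative cells a common median gave 0, and the filter on dim genes, which tests fewer genes, gave 4. With the replicate number as a block, 2 members passed for ICOS in activated cells (Il18r1 and Il18rap) and 1 for activation in ICOS single-positive cells, and other counts stayed within 1.5 times. Deviations of same-numbered arrays correlated above 0.1 for 27 of 28 pairs of groups (-0.016 to 0.75), and the labels do not say that numbers pair arrays. No member that passed changed direction in any alternative. Counts over all genes depended on the alternative: 771 to 2275 for ICOS in fresh cells (1301 in the fit reported), 4 to 268 for CD103 (41), 443 to 2734 for ICOS in activated cells (1383) and 0 to 942 for CD103 (143), 5651 to 7515 for activation (6214), 815 to 2638 for the ICOS difference between states (1339) and 8 to 370 for that of CD103 (59). By subset they ran from 2062 to 4713 in double-negative (3238), 2832 to 5440 in CD103 single-positive (4036), 91 to 1064 in ICOS single-positive (417) and 1362 to 4412 in double-positive cells (2803). They were 0 to 71 and 0 to 201 for the interactions in fresh and activated cells (9 and 3). Where no cause is named, the cause was not tested. Dim levels, such as fresh Il1rn, and Il1r2 and Il18rap in fresh double-negative cells, limit the folds.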
